A study of Homo sapiens with 6 samples.

Results

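The HOX clusters are 4 groups of neighbouring homeobox genes, HOXA on chromosome 7, HOXB on chromosome 17, HOXC on chromosome 12 and HOXD on chromosome 2. Of 19974 protein-coding genes in the RefSeq annotation of GRCh38.p14, 38 HOX genes were examined, 10 in HOXA, 10 in HOXB, 9 in HOXC and 9 in HOXD. Each gene was taken as its RefSeq span extended by 2 kb on both sides, and every peak or differential region that overlapped this window by at least 1 bp was counted for it. Neighbouring windows overlapped in 19 pairs, which involved 24 of the 38 genes, so some genes share peaks. The choice rests on gene names and positions, with no measured value in the rule.

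HOX genes encode transcription factors that give cells their position along the body axis. Within a cluster all genes are read in the same direction, and their order on the chromosome follows the order in which they are used from head to tail, from the low-numbered (3′) to the high-numbered (5′) end. Polycomb complexes keep HOX genes silent where they are not needed and leave H3K27me3, trimethylation of lysine 27 of histone H3, across them, while Trithorax proteins place H3K4me3, trimethylation of lysine 4, at promoters in use or held ready. The cerebellum, where medulloblastoma arises, forms ahead of the HOX-expressing hindbrain.

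D283 is an established cell line of Group 3 medulloblastoma, a childhood tumor of the cerebellum, and was kept as floating spheres in neural precursor medium on ultra-low attachment plates. OTX2low cells received 30 nM of an siRNA against OTX2, and OTX2high cells a scramble siRNA that targets no gene. H3K4me3 and H3K27me3 were each profiled by ChIP-seq in 1 library per condition, all from this 1 cell line, and 2 IgG libraries served as controls. With no replicates, no value below has an error between samples, and no difference between conditions was tested beyond the counting of reads. Reads left after filtering, per the file headers, numbered 20914582 in OTX2low and 33137731 in OTX2high for H3K4me3, and 33885628 in the list labelled OTX2low and 40271458 in the list labelled OTX2high for H3K27me3.

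The file headers of the H3K27me3 lists name the opposite condition to their sample labels. The list labelled OTX2high was called against an IgG library of 55079542 reads, the same number as for the H3K4me3 list of OTX2low, and the list labelled OTX2low against one of 85840108 reads, as for H3K4me3 in OTX2high. These lists are called by their sample labels here, and no direction is read from them. Their fragment length estimates, 78 bp for the list labelled OTX2low and 169 bp for the list labelled OTX2high, also differ, and median peak widths were 139 and 332 bp. At OTX2 itself H3K4me3 was lower in OTX2low, with 1767.53 normalized reads in OTX2low and 3119.1 in OTX2high over the largest of its 3 regions in the authors' deposited table, a log2 ratio of -0.82 (95% counting interval -0.91 to -0.73). All 8 of the Group 3 marker genes listed, OTX2 and CRX among them, had an H3K4me3 peak in both lists, against 73% of all protein-coding genes. Of the glial markers AQP4 alone had one in both lists, with none at GFAP, MBP or MOG. CDH5 was the only one of 2 endothelial markers with a peak, and PTPRC, the pan-leukocyte gene, the only one of 4 immune and blood markers, in OTX2high alone. COL1A1 and EPCAM had one among 4 mesenchymal and epithelial markers.

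The promoters below were chosen because they stand for the 3 states met at HOX genes in these cells. RefSeq promoter sequences of 300 bases, from 250 before to 50 after a transcription start, were found for 20 of the 38 genes, and CG dinucleotides are in capitals. HOXA13, which shapes hand, foot and urogenital tract, carried H3K4me3 and no H3K27me3. HOXD13, which shapes the digits, carried both marks in its window. HOXD10, which acts in hindlimb motor neurons, and HOXB1, which specifies a hindbrain segment, carried H3K27me3 without H3K4me3. The sequences read 5′ to 3′ on the strand of the gene, at chr7:27200042-27200341 (minus strand), chr2:176092471-176092770 (plus), chr2:176116528-176116827 (plus) and chr17:48530962-48531261 (minus), all GRCh38.p14.
HOXA13: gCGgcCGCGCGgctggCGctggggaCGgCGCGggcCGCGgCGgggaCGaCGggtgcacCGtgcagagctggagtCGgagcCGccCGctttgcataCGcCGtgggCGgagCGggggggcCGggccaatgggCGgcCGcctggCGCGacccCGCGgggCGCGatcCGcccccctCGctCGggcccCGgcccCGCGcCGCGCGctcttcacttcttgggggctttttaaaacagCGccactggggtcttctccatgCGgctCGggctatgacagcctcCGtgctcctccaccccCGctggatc
HOXD13: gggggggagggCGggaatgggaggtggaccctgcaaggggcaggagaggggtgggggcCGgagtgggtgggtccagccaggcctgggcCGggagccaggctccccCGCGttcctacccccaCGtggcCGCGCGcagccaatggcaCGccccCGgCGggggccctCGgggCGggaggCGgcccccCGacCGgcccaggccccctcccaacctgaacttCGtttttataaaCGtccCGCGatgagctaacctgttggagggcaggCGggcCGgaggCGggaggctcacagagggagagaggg
HOXD10: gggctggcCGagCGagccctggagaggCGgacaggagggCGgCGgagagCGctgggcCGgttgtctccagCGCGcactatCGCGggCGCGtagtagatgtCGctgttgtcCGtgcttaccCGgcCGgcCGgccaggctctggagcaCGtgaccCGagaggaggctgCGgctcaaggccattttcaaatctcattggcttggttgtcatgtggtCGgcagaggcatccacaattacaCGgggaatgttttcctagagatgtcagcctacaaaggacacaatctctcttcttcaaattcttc
HOXB1: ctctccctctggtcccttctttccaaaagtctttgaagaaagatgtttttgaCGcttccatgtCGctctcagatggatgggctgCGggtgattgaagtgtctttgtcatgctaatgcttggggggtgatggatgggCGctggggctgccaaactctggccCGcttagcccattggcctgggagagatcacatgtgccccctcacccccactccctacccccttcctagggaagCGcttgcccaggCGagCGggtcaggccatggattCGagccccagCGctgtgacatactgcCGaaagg

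The HOXA13 stretch held 44 CG dinucleotides and lay under H3K4me3 peaks of 17.1-fold in OTX2low and 23.8-fold in OTX2high. The HOXD13 stretch held 24, under H3K4me3 peaks of 12.5-fold in OTX2low and 16.0-fold in OTX2high. It met no H3K27me3 peak in the list labelled OTX2low and one of 9.09-fold in the list labelled OTX2high. The HOXD10 stretch held 23, about as many, but lay under no H3K4me3 peak. It was under H3K27me3 peaks of 7.07-fold in the list labelled OTX2low and 12.5-fold in the list labelled OTX2high. The HOXB1 stretch held 11, under H3K27me3 peaks of 8.59 and 13.1-fold in these lists. These folds, and all peak values below, are the authors' own enrichment over background at the peak summit.

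Over the 26 distinct HOX promoters in the table the median was 22.5 CG, from 0 to 44, against a median of 21.0 over all 22035 distinct promoters of protein-coding genes. Most of the 26 were of HOXA and HOXD. HOXB1 was the only HOXB gene among them, and HOXC had only the start shared by HOXC4 and HOXC5. At least 15 CG were present in 73.1% of the HOX promoters and 62.2% of all. The 9 HOX promoters under an H3K4me3 peak in both lists held 15 to 44 CG with a median of 29. The 16 under none held 0 to 29 with a median of 15, so the ranges overlapped. These 16 came from 11 genes, and several, among them the one with 0 CG, were starts of HOXA3. One of the HOXA10 promoters, with 25 CG, was under a peak in OTX2high only.

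H3K27me3 lay along the whole of HOXB and HOXD and over parts of HOXC and HOXA. A peak of the mark was present at 31 of the 38 HOX genes in the list labelled OTX2low and at 32 in the list labelled OTX2high, where 17.7% and 25.8% of all protein-coding genes had one. The 31 genes were also among the 32, against 16.8% of all genes with a peak in both lists. HOX windows were shorter than those of other genes, with a median of 7785 bp against 28170 bp. Coverage set the HOX genes further from the rest. At least 50% of the window was under H3K27me3 peaks at 16 HOX genes in the list labelled OTX2low, a state of 0.691% of all genes, and at 27 in the list labelled OTX2high, against 5.86%. In the list labelled OTX2low only 3 protein-coding genes (0.015%) were covered to 90% or more, and HOXB7 and HOXB9 were 2 of them. In the list labelled OTX2high 22 HOX genes reached 90%, against 1.38% of all genes.

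**Figure D1:**
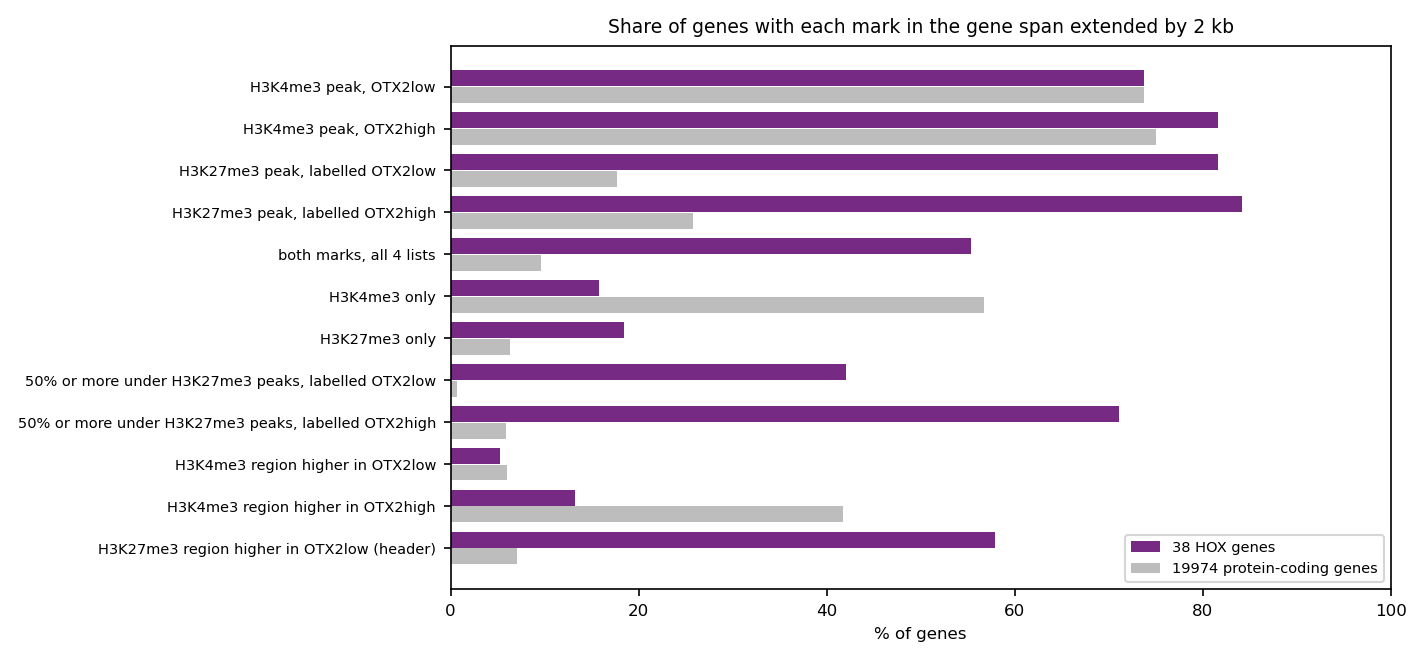
Share of genes, in %, with each mark in the gene span extended by 2 kb, for the 38 HOX genes (purple) and all 19974 protein-coding genes (grey). H3K27me3 stood at 81.6 and 84.2% of HOX genes against 17.7 and 25.8% of all, while H3K4me3 stood at 73.7 and 81.6% against 73.7 and 75%.

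H3K4me3 was about as frequent at HOX genes as elsewhere, but weaker. A peak was present at 28 HOX genes in OTX2low and at 31 in OTX2high, and at 73.7% and 75% of all protein-coding genes. The 28 genes had one in both lists, against 73% of all genes. The strongest H3K4me3 peak had a median of 13-fold in OTX2low and 14.8-fold in OTX2high over the HOX genes with a peak, against 35.4 and 44.9-fold over all genes with one. For H3K27me3 the order was the other way, with medians of 8.09-fold in the list labelled OTX2low and 10.5-fold in the list labelled OTX2high at HOX genes, against 5.95 and 5.68-fold.

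Both marks were called in all 4 lists at 21 HOX genes, a state of 9.59% of all genes. These were HOXA3 and HOXA4, 5 genes of HOXB, all 9 of HOXC and 5 of HOXD. H3K4me3 without any H3K27me3 peak, the state of 56.7% of all genes, was found at 6 HOX genes, HOXA6, HOXA7, HOXA9, HOXA10, HOXA11 and HOXA13, all of HOXA. These 6 were also the only HOX genes with no H3K27me3 peak in either list, against 73.3% of all genes. H3K27me3 without any H3K4me3 peak was found at 7, HOXA2, HOXB1, HOXB4, HOXB5, HOXB6, HOXD4 and HOXD10, against 6.29% of all genes. The other 4 changed state between the lists of a mark. HOXB3, HOXD3 and HOXD12 had an H3K4me3 peak in OTX2high only, and HOXA5 had H3K27me3 in the list labelled OTX2high only. Among peaks with a −log10 q of at least 10, H3K27me3 was left at 14 HOX genes in the list labelled OTX2low, and both marks in all 4 lists at 5.

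**Figure D2:**
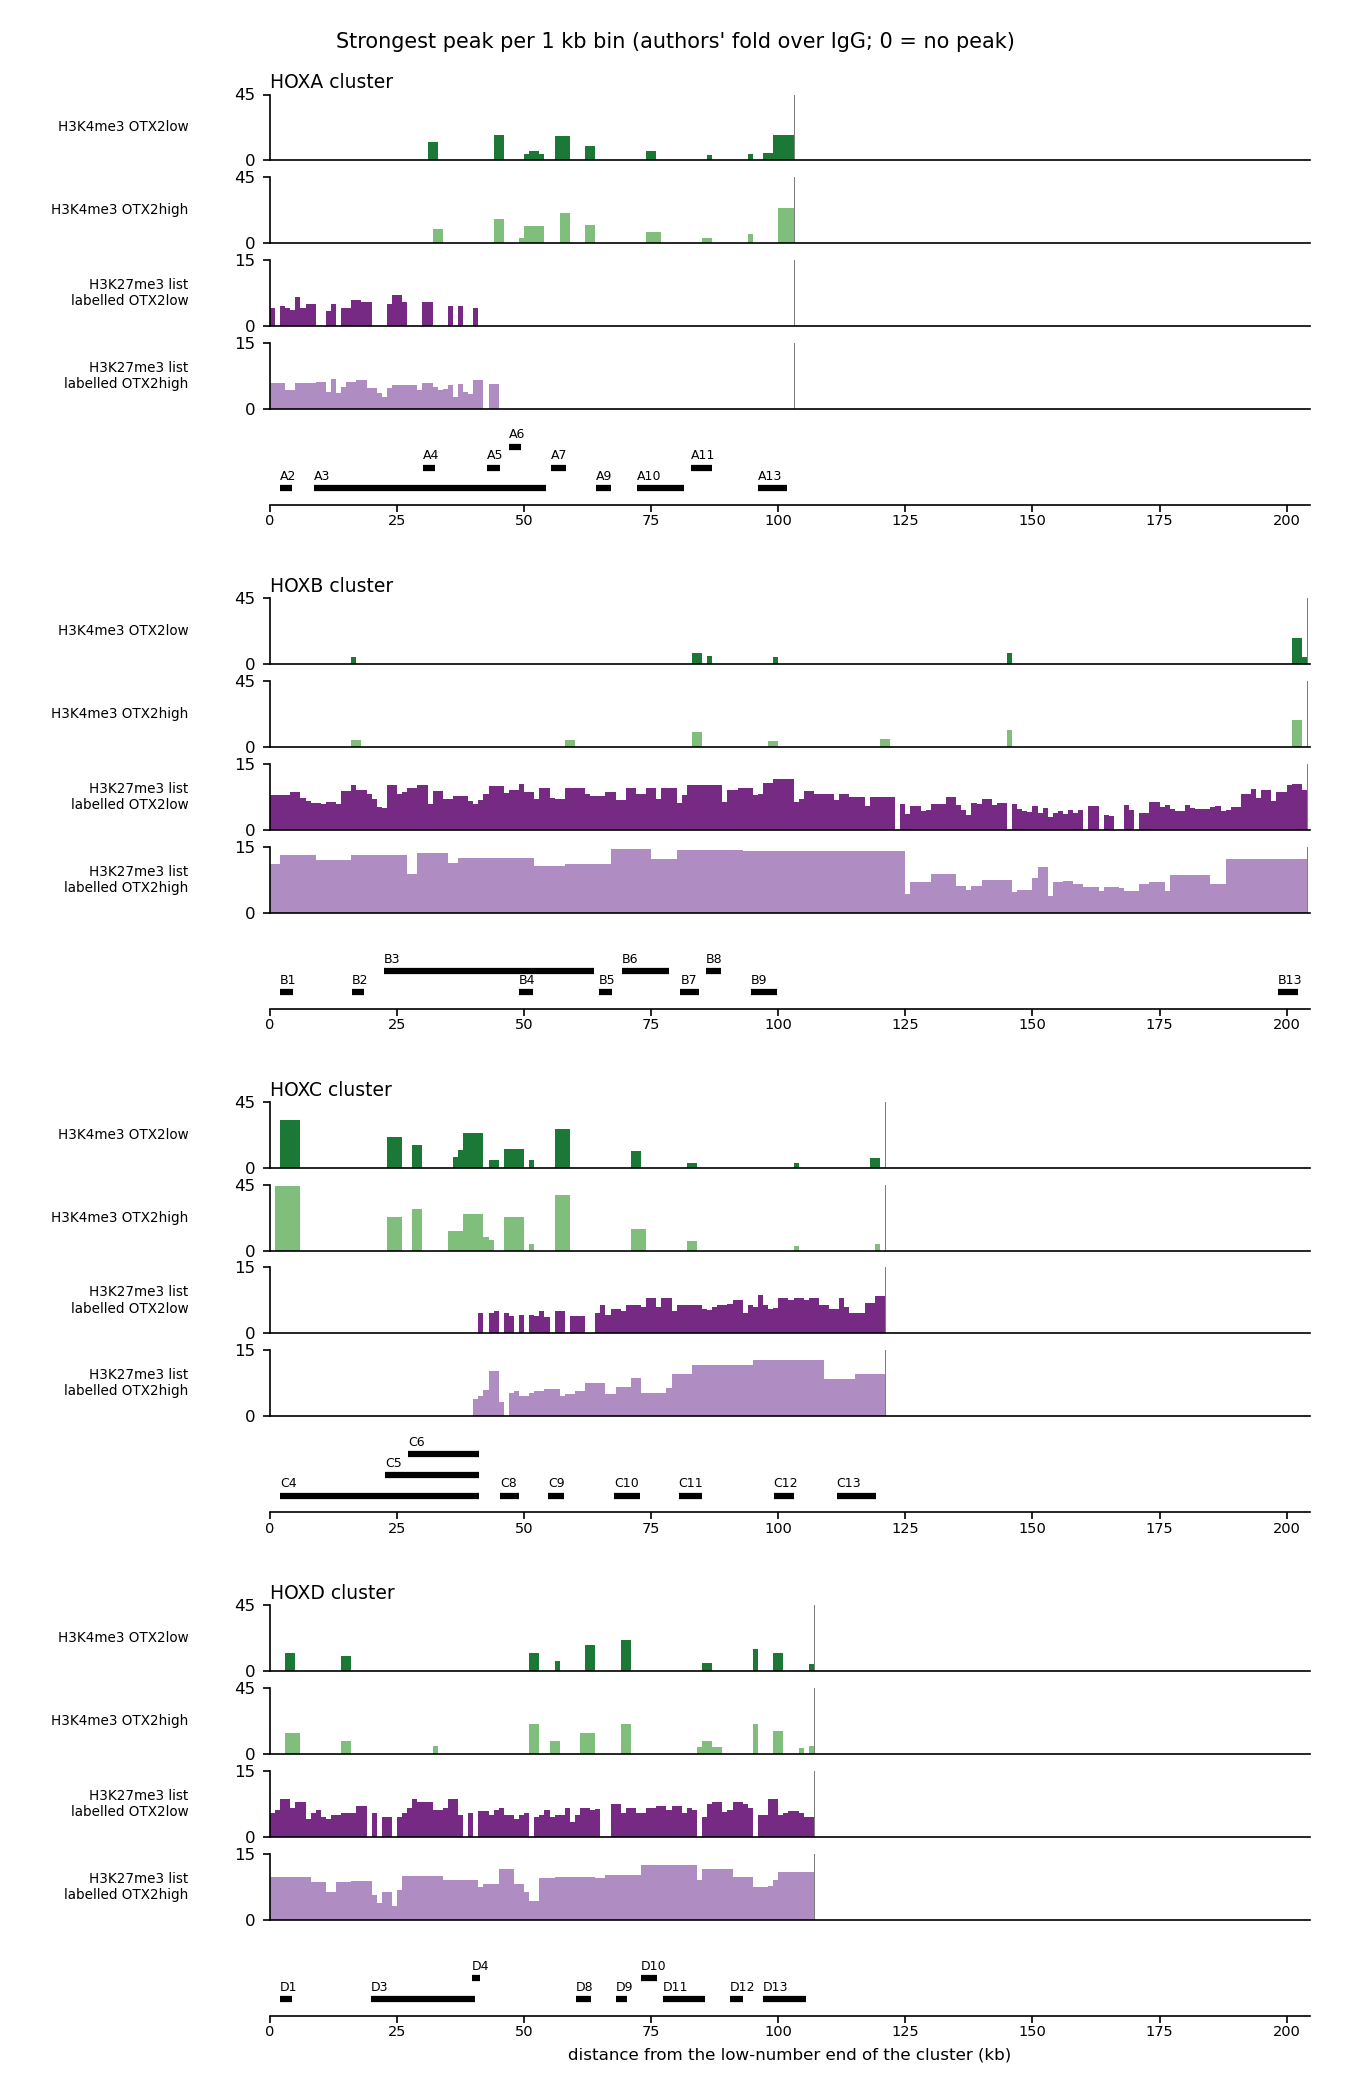
Strongest peak in each 1 kb bin along the 4 clusters, as the authors' fold over IgG, against distance in kb from the low-number end; rows are the 4 peak lists and black bars the gene spans. H3K27me3 ends partway through HOXA and HOXC, at opposite ends of the numbering, and runs the length of HOXB and HOXD.

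HOXA was divided in the middle. The cluster, at chr7:27098354-27202091 with its extensions, had H3K27me3 peaks over 3.45% of its length in the list labelled OTX2low and 26.9% in the list labelled OTX2high. Among peaks with a −log10 q of at least 10 these shares were 0 and 2.85%. All H3K27me3 peaks lay at the low-number end. From 27138658 in the list labelled OTX2low and 27142967 in the list labelled OTX2high to the end of the cluster, 63.4 and 59.1 kb, no H3K27me3 peak was called. The longer stretch holds the spans of HOXA5, HOXA6, HOXA7, HOXA9, HOXA10, HOXA11 and HOXA13, and the shorter all of these but HOXA5. It held 15 of the 16 H3K4me3 peaks of HOXA in OTX2low and 9 of the 11 in OTX2high.

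HOXA2, which patterns the hindbrain and the jaw, was the HOXA gene most covered by H3K27me3, at 13.9% of its window in the list labelled OTX2low and 71.7% in the list labelled OTX2high. It had no H3K4me3 peak. HOXA3, needed for thymus and parathyroid, had the strongest H3K27me3 peak of the cluster, 7.07-fold in the list labelled OTX2low and 6.82-fold in the list labelled OTX2high, and was covered to 5.28 and 46.6%. HOXA4 was covered to 2.89 and 54.6%, and HOXA5, which acts in lung development, to 0 and 17.7%. Coverage thus ended at HOXA5 in the numbering, and HOXA6 to HOXA13 had 0% in both lists.

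The H3K4me3 peak at the HOXA5 5′ end, shared by the windows of HOXA3, HOXA5 and HOXA6, was 17.5-fold in OTX2low and 16.6-fold in OTX2high. HOXA4 had 12.9-fold in OTX2low and 9.64-fold in OTX2high. HOXA7 had 16.7-fold in OTX2low and 20.8-fold in OTX2high. HOXA9, a factor of blood stem cells, had a peak of 9.99-fold in OTX2low and 12.7-fold in OTX2high, whose summits, 4561 and 4588 bp from the annotated start, lay past the 3′ end of the gene and not at its promoter. HOXA10, a factor of uterine and skeletal development, had 6.66-fold in OTX2low and 7.53-fold in OTX2high, and HOXA11, which shapes the forearm, had the weakest of the cluster, at 3.75 and 3.31-fold. HOXA13 at the far end had 17.1-fold in OTX2low and 23.8-fold in OTX2high. The weak values of HOXA10 and HOXA11 thus lay between the higher ones of HOXA7 and HOXA13 in both conditions. The HOXA9 value, not one of its promoter, was also below these 2, but above that of HOXA4 in OTX2high.

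HOXC showed the opposite layout. In this cluster, chr12:53936831-54058030, H3K27me3 covered the high-number end, with peaks over 29.3% of the cluster in the list labelled OTX2low and 58.8% in the list labelled OTX2high. With a −log10 q of at least 10, the share in the list labelled OTX2low was 1.38%. No H3K27me3 peak was called from 54016285 in the list labelled OTX2low and 54017166 in the list labelled OTX2high to the end, 41.7 and 40.9 kb, which is the end of HOXC4, HOXC5 and HOXC6. In the list labelled OTX2low H3K27me3 coverage was 10.6% at HOXC8, 11% at HOXC9, 38.1% at HOXC10, 63.7% at HOXC11, 70.2% at HOXC12 and 51.5% at HOXC13. In the list labelled OTX2high it was 61.2, 77.1, 85.7, 94.8, 100 and 98.7% at the same genes. Coverage was higher at each higher position number up to HOXC12 in both lists. HOXC4, HOXC5 and HOXC6 had 0.343, 0.659 and 0.825% in the list labelled OTX2low and 4.29, 8.23 and 10.3% in the list labelled OTX2high. These 3 genes share a start in the annotation, at 54016888, and their only H3K27me3 peaks lay at or before 54017165.

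H3K4me3 of HOXC was strongest at the low-number end and at HOXC9. HOXC4, which acts in the neck and in lymphocytes, had the strongest H3K4me3 peak of any HOX gene, 32.6-fold in OTX2low and 44.0-fold in OTX2high, with its summits at 54054008 and 54054094, near the 3′ end of its span. HOXC5 and HOXC6, which pattern the neck and upper trunk, shared their strongest peaks, 23.7-fold in OTX2low with the summit at 54017672 and 28.1-fold in OTX2high with the summit at 54028588, so the strongest of several peaks was not the same one in both conditions. For HOXC4, HOXC5 and HOXC6 only the shared start at 54016888 was used. Whether peaks further inside their spans lie at other starts of these genes was not tested. HOXC9, which sets thoracic identity in the spinal cord, had 26.2-fold in OTX2low and 38-fold in OTX2high, at its start. HOXC8 had 13.1-fold in OTX2low and 22.6-fold in OTX2high. From HOXC10 on the values were lower, with 11.5-fold in OTX2low and 14.5-fold in OTX2high at HOXC10, a lumbar factor, and 3.28 and 6.63-fold at HOXC11. HOXC12 had 3.33 and 3.31-fold, and HOXC13, a hair and nail factor, 6.66 and 4.22-fold. HOXC13 carried the strongest H3K27me3 peak of its cluster in the list labelled OTX2low among gene windows, 8.59-fold, and HOXC12 in the list labelled OTX2high, 12.8-fold.

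HOXB was covered from end to end. Over chr17:48526526-48730750, H3K27me3 peaks took up 64.7% of the cluster in the list labelled OTX2low and 94.6% in the list labelled OTX2high. The share in the list labelled OTX2low was 26.9% among peaks with a −log10 q of at least 10. The longest stretch without a peak was 3.49 and 1.66 kb. Each of the 10 HOXB genes was covered to between 72.2 and 93.0% in the list labelled OTX2low and between 96.7 and 100% in the list labelled OTX2high. The widest peak of the list labelled OTX2high, 32497 bp long, held the HOXB9 window. HOXB9 also had the strongest H3K27me3 peak of the list labelled OTX2low, 11.6-fold, while HOXB5 and HOXB6 shared the strongest of the list labelled OTX2high, 14.5-fold.

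Few H3K4me3 peaks interrupted this domain, 7 in OTX2low over 1.61% of the cluster and 8 in OTX2high over 2.51%, or 1.03 and 1.42% among peaks with a −log10 q of at least 10. Each of them overlapped an H3K27me3 peak. HOXB13, a prostate lineage factor set apart from the other HOXB genes by a long gap, had the strongest, 17.6-fold in OTX2low and 18.4-fold in OTX2high, with its summit at the same base in both, 142 bp from the start. HOXB7 and HOXB8 shared a peak of 7.93-fold in OTX2low and 10.5-fold in OTX2high at the HOXB7 start. HOXB2 had 4.83-fold in OTX2low and 4.47-fold in OTX2high, and HOXB9 4.58 and 4.22-fold. HOXB3 had a peak of 4.80-fold in OTX2high and none in OTX2low. HOXB1, HOXB4, HOXB5 and HOXB6 had no H3K4me3 peak in either condition.

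HOXD carried H3K27me3 throughout and more H3K4me3 than HOXB. Over chr2:176085487-176192907, H3K27me3 peaks covered 39.9% in the list labelled OTX2low and 93.6% in the list labelled OTX2high, with no gap above 2.54 and 0.874 kb. Among peaks with a −log10 q of at least 10, the share in the list labelled OTX2low was 2.95%. The 9 genes ranged from 27.9% at HOXD4 to 68.5% at HOXD12 in the list labelled OTX2low, and from 91.9% at HOXD13 to 98.8% at HOXD1 in the list labelled OTX2high. HOXD13 reached 8.59-fold in the list labelled OTX2low, shared as the highest value with HOXD1 and HOXD3, and HOXD10 and HOXD11 shared the highest of the list labelled OTX2high, 12.5-fold.

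H3K4me3 covered 7.97% of HOXD in OTX2low and 11.3% in OTX2high, against 1.61 and 2.51% of HOXB. HOXD9 had 21.2-fold in OTX2low and 20.8-fold in OTX2high, and HOXD8 18.3-fold in OTX2low and 14.8-fold in OTX2high. HOXD1, at the low-number end, had 12.5-fold in OTX2low and 14.8-fold in OTX2high. HOXD11, which shapes the forearm together with HOXA11, had 5.83-fold in OTX2low and 9.34-fold in OTX2high. HOXD13 had 15-fold in OTX2low and 20.8-fold in OTX2high. Its strongest peak lay past the 3′ end of HOXD13, towards HOXD12, with summits at 176097613 in OTX2low and 176097543 in OTX2high. The HOXD12 value of 20.8-fold in OTX2high came from the same peak. The OTX2low peak ended at 176097784, just before the HOXD12 window. HOXD3 had a peak of 5.42-fold in OTX2high and none in OTX2low, and HOXD4 and HOXD10 had none in either.

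**Figure D3:**
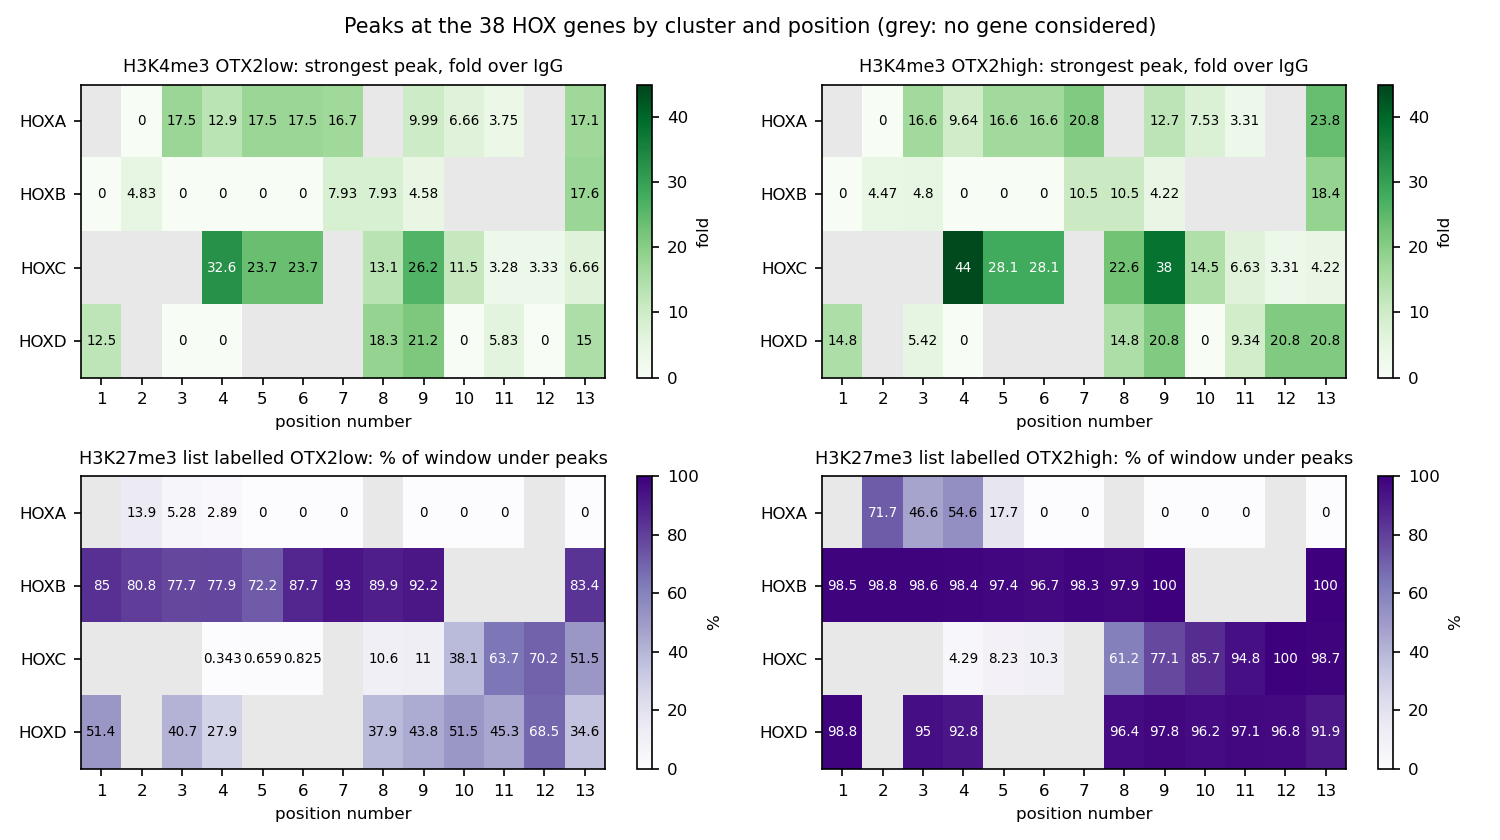
The 38 HOX genes by cluster (rows) and position number (columns): upper panels, strongest H3K4me3 peak as the authors' fold over IgG (0 where there is none) in OTX2low (left) and OTX2high (right); lower panels, % of the gene window under H3K27me3 peaks in the list labelled OTX2low (left) and labelled OTX2high (right). HOXA6 to HOXA13 are at 0% and the HOXB row is at 72.2% or more in both lower panels, and HOXC4 has the highest H3K4me3 in both upper ones.

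Position 8 was the only position whose windows were all in the same state, HOXB8, HOXC8 and HOXD8 having both marks in all 4 lists, and at each other position the genes of different clusters differed. HOXB8, however, had no H3K4me3 peak within 1 kb of its 5′ end in either condition. Its only one in OTX2high was the peak at the HOXB7 start. All 4 genes at position 9 and all 4 at position 13 had H3K4me3 in their windows in both lists, that of HOXA9 past the 3′ end of the gene. At position 13 the H3K27me3 coverage was 0% for HOXA13 in both lists. For HOXB13, HOXC13 and HOXD13 it was 83.4, 51.5 and 34.6% in the list labelled OTX2low, and 100, 98.7 and 91.9% in the list labelled OTX2high. At position 4, HOXC4 had the strongest H3K4me3 of all, HOXA4 was at 12.9-fold in OTX2low and 9.64-fold in OTX2high, and HOXB4 and HOXD4 had none. The 2 genes at position 1, HOXB1 and HOXD1, were both covered by H3K27me3, at 85.0 and 51.4% in the list labelled OTX2low and at 98.5 and 98.8% in the list labelled OTX2high, and HOXD1 alone had H3K4me3.

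H3K4me3 and H3K27me3 peaks overlapped in all 4 clusters, at different shares of the H3K4me3 peaks. No H3K27me3 peak of either list overlapped 14 of 16 H3K4me3 peaks of HOXA in OTX2low and 9 of 11 in OTX2high. In HOXC these numbers were 5 of 16 and 4 of 16, in HOXD 1 of 13 and 0 of 14, and in HOXB 0 of 7 and 0 of 8. The list labelled OTX2high covered 26.9% of HOXA, 58.8% of HOXC, 93.6% of HOXD and 94.6% of HOXB. Little of HOXD and HOXB was thus left where a peak could go without overlap. The list labelled OTX2low overlapped 0 of 16 OTX2low H3K4me3 peaks in HOXA, 9 of 16 in HOXC, 8 of 13 in HOXD and 6 of 7 in HOXB. For OTX2high H3K4me3 peaks it overlapped 0 of 11, 11 of 16, 11 of 14 and 7 of 8. H3K4me3 peaks lay within 1 kb of an annotated 5′ end at 23 HOX genes in OTX2low and 24 in OTX2high, so that 5 of the 28 and 7 of the 31 genes had theirs further off. A gene can be counted for a mark of its neighbour in this way, as at HOXD12.

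The genes next to each cluster gave the extent of these domains. Beyond HOXA13, EVX1, a homeobox gene of the spinal cord, had no H3K27me3 peak, as HOXA13 itself, and an H3K4me3 peak of 8.74-fold in OTX2low and 9.94-fold in OTX2high. Beyond HOXD13, its relative EVX2 was covered by H3K27me3 to 41.0% in the list labelled OTX2low and 93.7% in the list labelled OTX2high. PRAC1, inside the gap before HOXB13, was covered to 79.0 and 100%, and SKAP1, beyond HOXB1, to 14.2 and 73.7%, with no H3K4me3 at either. SMUG1 beyond HOXC4 and MTX2 beyond HOXD1 had H3K4me3 and no H3K27me3 peak. SKAP2, beyond HOXA2, was covered by H3K27me3 to 0.221% in the list labelled OTX2low and 8.04% in the list labelled OTX2high. CALCOCO1, beyond HOXC13, was covered to 3.67 and 14.2%, and TTLL6, beyond HOXB13, to 12.9 and 36.6%. Of the 13 neighbouring genes listed, H3K27me3 peaks were found at 6 in the list labelled OTX2low, against 17.7% of all genes. In the list labelled OTX2high they were found at 7, against 25.8%. H3K4me3 peaks in both conditions were found at 11, against 73%.

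Between conditions, most HOX genes had no H3K4me3 difference in the authors' deposited table, and HOXA13 had the clearest. A differential H3K4me3 region was listed at 7 of the 38 genes, where 53.7% of all protein-coding genes had one. At 2 genes it was higher in OTX2low, a state of 6% of all genes, and at 5 higher in OTX2high, against 41.7%. No HOX gene had regions in both directions, against 5.99%. HOX windows were shorter, with a median of 7785 bp against 28170 bp, and their H3K4me3 peaks weaker. The part of window length and peak strength in these shares was not tested. The 7 genes shared 6 distinct regions. The p-values given below are the authors', from a G-test of 1 library against 1 with Benjamini-Hochberg adjustment. They compare those 2 libraries and not the conditions, and the intervals cover counting error only.

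At HOXA13 the region chr7:27194501-27198900, which lies within the gene, had 196.81 normalized reads in OTX2low and 62.22 in OTX2high in the authors' deposited table. This is a log2 ratio of 1.66 (95% interval 1.26 to 2.07), higher in OTX2low, with an adjusted p listed as 0 in the authors' deposited table. Reads over IgG were 8.84-fold in OTX2low and 2.66-fold in OTX2high there, again in the authors' deposited table. The peak lists showed the same stretch differently in the 2 conditions, with 7 H3K4me3 peaks over 51.9% of the HOXA13 window in OTX2low and 2 over 33.4% in OTX2high. The strongest peak, at the promoter printed above, was not higher in OTX2low, at 17.1-fold in OTX2low and 23.8-fold in OTX2high. The added signal in OTX2low thus lay over the body of the gene, on the side away from its start, and the region ended before the printed promoter. EVX1, next to HOXA13, had 40.11 reads in OTX2low and 11.17 in OTX2high in one region of the authors' deposited table and 66.44 and 23.13 in another, at log2 ratios of 1.84 (0.90 to 2.86) and 1.52 (0.84 to 2.23).

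HOXD3, the other gene with more H3K4me3 in OTX2low, rested on few reads. Its region at chr2:176169401-176170600 had 22.56 normalized reads in OTX2low and 3.19 in OTX2high in the authors' deposited table, a log2 ratio of 2.82 (1.22 to 4.84) with an adjusted p of 0.00199. It lay under no peak of either list, and its reads were 2.16-fold over IgG in OTX2low and 0.45-fold in OTX2high in the authors' deposited table.

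Higher H3K4me3 in OTX2high was found along HOXC and at HOXD11. HOXC8 had 280.8 normalized reads in OTX2low and 461.08 in OTX2high over chr12:54009201-54011700 in the authors' deposited table, a log2 ratio of -0.72 (-0.94 to -0.49) with an adjusted p of 7.04e-09. HOXC4, HOXC5 and HOXC6 shared a region just inside their common start, chr12:54018001-54019000, with 105.3 reads in OTX2low and 173.9 in OTX2high in the authors' deposited table, and a log2 ratio of -0.72 (-1.10 to -0.35). They shared a second at chr12:54028401-54029400, with 121.6 and 193.05 reads in OTX2low and OTX2high in the authors' deposited table, and a ratio of -0.67 (-1.02 to -0.32). HOXD11 had 42.62 reads in OTX2low and 88.55 in OTX2high at its promoter in the authors' deposited table, a log2 ratio of -1.05 (-1.65 to -0.49). At an adjusted p of at most 0.0001 in the authors' deposited table, 1 gene was left on each side, HOXA13 with more H3K4me3 in OTX2low and HOXC8 with more in OTX2high. The 3 HOXC ratios lay close to the median of -0.61 over all 21714 regions of the authors' deposited table. The OTX2low library had fewer H3K4me3 reads than the OTX2high one, and the part of depth in these differences was not tested.

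No region of the authors' deposited table lay at the HOXC4 peak of 32.6 and 44.0-fold or at HOXC9, the strongest H3K4me3 peaks of the clusters. Over the 28 genes with an H3K4me3 peak in both lists, the fold of the strongest peak was higher in OTX2low at 11 and higher in OTX2high at 17. Over all genes it was higher in OTX2low at 9.65% of 14587. The median log2 ratio of these folds was -0.24 at HOX genes, from -1.02 to 0.66, and -0.32 over all genes. Genes that share a peak were counted separately, as HOXA3, HOXA5 and HOXA6 among the 11 and HOXB7 and HOXB8 among the 17. Also among the 11, HOXA11, HOXB2, HOXB9 and HOXC12 had only weak peaks, under 5-fold in both lists.

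**Figure D4:**
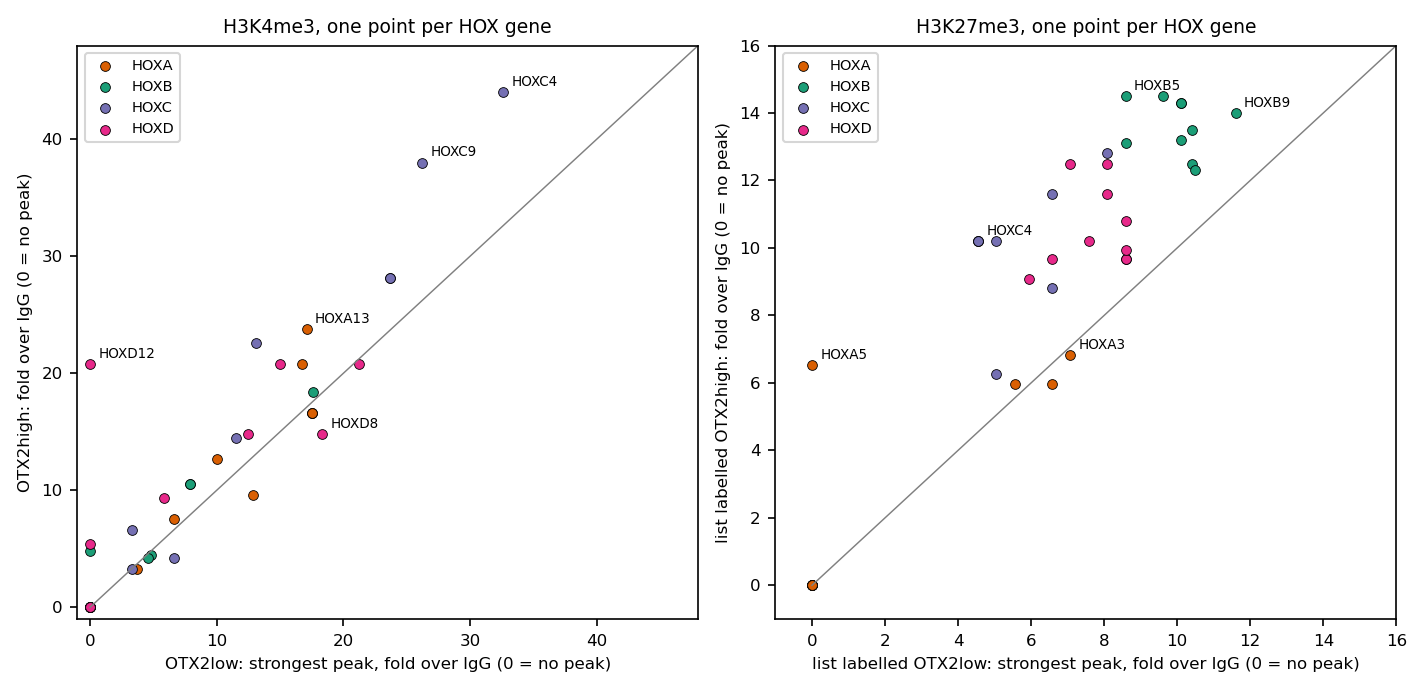
Strongest peak at each of the 38 HOX genes as the authors' fold over IgG (0 where there is none), colored by cluster: left, H3K4me3 in OTX2low (horizontal) and OTX2high (vertical); right, H3K27me3 in the list labelled OTX2low (horizontal) and labelled OTX2high (vertical); the line marks equal values. HOXC4 and HOXC9 lie highest for H3K4me3, and the highest H3K27me3 values are at HOXB9 in the list labelled OTX2low (11.6-fold) and at HOXB5 and HOXB6 in the list labelled OTX2high (14.5-fold).

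H3K27me3 differed by small amounts and in 1 direction. In the authors' deposited table a differential H3K27me3 region was listed at 22 of the 38 HOX genes, where 10.7% of all protein-coding genes had one. All were higher in OTX2low, as the header of the authors' deposited table names the conditions, against 7.1% of all genes, and none was higher in OTX2high, against 3.35%. With conditions as in the sample labels, each of these would be higher in OTX2high instead. The list labelled OTX2high, the one with wider H3K27me3 coverage, is named OTX2low in its own header. The 22 genes shared 11 regions of 11000 to 39000 bp, up to 5 genes in one, and these held all 10 HOXB genes, 8 of the 9 HOXD genes, HOXC12, HOXC13, HOXA2 and HOXA3.

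The largest ratio was at HOXA2 and HOXA3, whose region at chr7:27104001-27115000 had 539.64 normalized reads in OTX2low and 409.32 in OTX2high in the authors' deposited table. This is a log2 ratio of 0.40 (0.21 to 0.59). The region over HOXD8 to HOXD12, chr2:176103001-176142000, had 3466.11 reads in OTX2low and 2754.34 in OTX2high in the authors' deposited table, a ratio of 0.33 (0.26 to 0.41). The region over HOXD12 and HOXD13, which reaches into EVX2, had 2671.96 reads in OTX2low and 2076.33 in OTX2high in the authors' deposited table, a ratio of 0.36 (0.28 to 0.45). HOXB3 to HOXB6 had 4632.85 reads in OTX2low and 3906.85 in OTX2high in the authors' deposited table, a ratio of 0.25 (0.18 to 0.31), and HOXC12 with HOXC13 had 2237.27 and 1845.38, a ratio of 0.28 (0.19 to 0.37).

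The 11 ratios lay between 0.22 and 0.40 with a median of 0.27, and the interval of each overlapped those of all the others. The median over all 5401 regions of the authors' deposited table was -0.48. Among the 1647 regions at least 4-fold over IgG in either library, as all the HOX regions were, 1629 were higher in OTX2low and the median log2 ratio was 0.35 in the authors' deposited table. HOX values were thus near those of other strongly marked regions. HOXC4 to HOXC11, HOXD1 and HOXA4 to HOXA13 had no H3K27me3 region in the authors' deposited table.

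**Figure D5:**
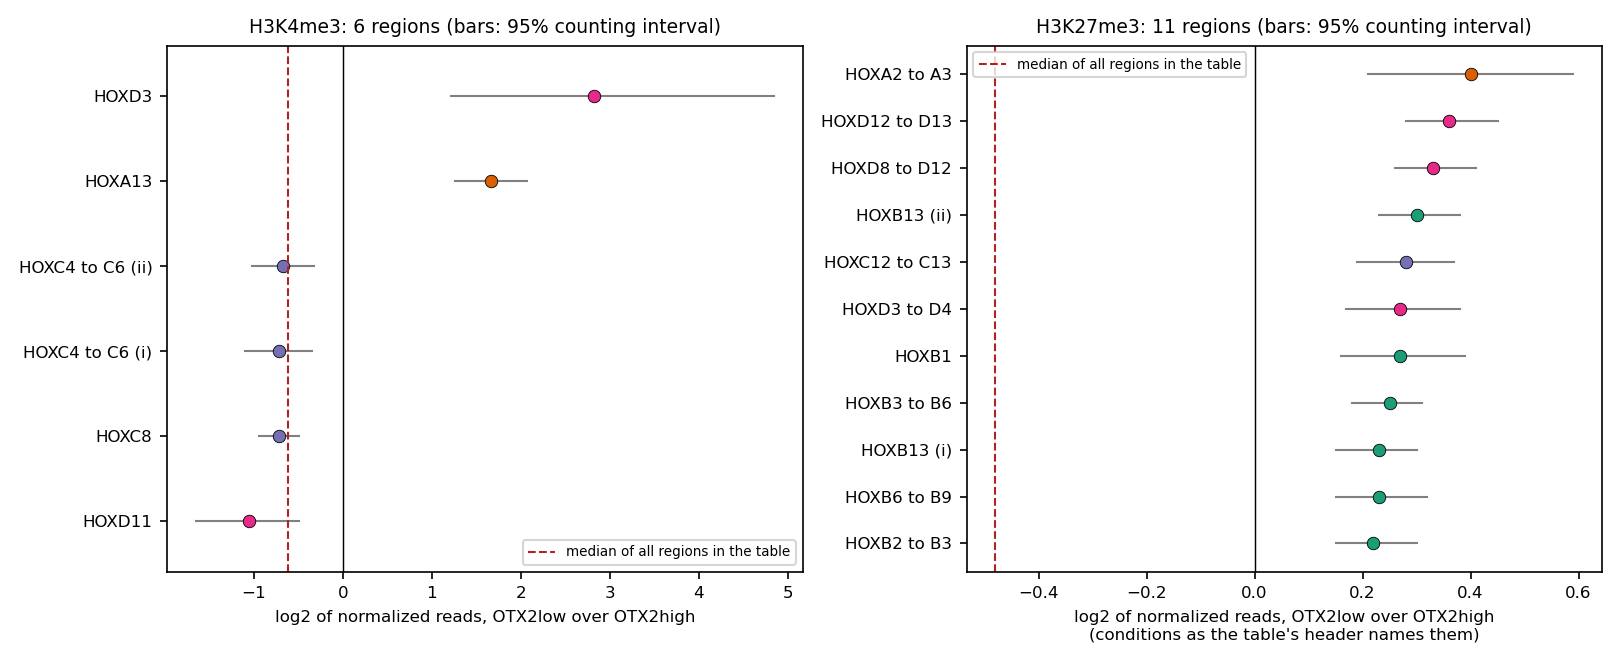
Log2 ratio of normalized reads, OTX2low over OTX2high, in the differential regions at HOX genes, with 95% counting intervals (orange HOXA, green HOXB, violet HOXC, pink HOXD; OTX2low and OTX2high for H3K27me3 as the table's header names them); dashed lines mark the median over all regions of the authors' deposited table. For H3K4me3 the HOXA13 and HOXD3 regions lie above 0 and the other 4 below, and for H3K27me3 all 11 lie between 0.22 and 0.40.

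The cofactors of the PBX, MEIS and PKNOX families, which bind DNA together with HOX proteins, had H3K4me3 peaks at 9 of 9 genes in both conditions, where 73% of all genes had one in both. H3K27me3 lay at 1 of the 9, MEIS3, and the other 8 had H3K4me3 alone, the state of 56.7% of all genes. For H3K4me3 in the authors' deposited table, MEIS3 was higher in OTX2low, a state of 6% of all genes. At 5 of the 9 it was higher in OTX2high, against 41.7%, and 2 had regions of both kinds, against 5.99%. Cofactor windows were long, with a median of 142745 bp against 28170 bp over all genes. The part of length in these counts was not tested. MEIS3 had 531.51 normalized reads in OTX2low and 257.66 in OTX2high in the authors' deposited table, a log2 ratio of 1.04 (0.83 to 1.26). MEIS1, the partner of HOXA9 in leukemia, had a peak of 50.8-fold in OTX2low and 50.6-fold in OTX2high, above that of any HOX gene.

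Of 16 upstream regulators listed, among them the CDX factors, retinoic acid receptors and enzymes, EGR2 of the hindbrain, and Polycomb and Trithorax genes, 14 had H3K4me3 in both conditions, against 73% of all genes. H3K27me3 lay at 7 in the list labelled OTX2low and 8 in the list labelled OTX2high, against 17.7 and 25.8%. In the authors' deposited table, 12 had more H3K4me3 in OTX2high, against 41.7% of all genes. Some of these rested on few reads, as CDX2 with 0 normalized reads in OTX2low and 11.97 in OTX2high in the authors' deposited table. Some regions lay under no peak, and neighbouring genes could share a region. The part of library depth in this count was not tested. CDX2, which activates posterior HOX genes, had H3K27me3 over 61.6% of its window in the list labelled OTX2low and 96.8% in the list labelled OTX2high. Its strongest H3K4me3 peak was 4.58-fold in OTX2low and 6.33-fold in OTX2high. CDX1 and CDX4 had no H3K4me3 peak in either condition. EZH2, the enzyme that places H3K27me3, had H3K4me3 of 22.1-fold in OTX2low and 23.8-fold in OTX2high, and no H3K27me3 peak.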

How the data were processed

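The series holds ChIP-seq peak lists and differential tables. The submitters' processing notes name Bowtie2 2.3.3.1, MACS2 2.1.1.20160309 and GRCh38. The file headers give 1 ChIP library and 1 IgG library behind every peak list, narrow peaks and a q-value cutoff of 0.05, with nothing pooled. The deposited peak values are a pileup signal, −log10 p-values, −log10 q-values and a fold enrichment (a ratio over background). Per the file headers the differential tables came from diffReps 1.55.6, a G-test of 1 library against 1 at a p-value cutoff of 0.0001. Windows were 1000 bp for H3K4me3 and 10000 bp for H3K27me3. These deposited columns hold normalized read signal, a log2 ratio, p-values and adjusted p-values. Their command names hg19 as its genome option, while coordinates were read here as GRCh38, the build of the peak lists.

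Protein-coding genes of RefSeq GRCh38.p14 on the autosomes and chromosome X formed the background. Overlaps of at least 1 bp with each gene span extended by 2 kb were counted in Python 3.11.15 with pandas 2.3.3 and SciPy 1.17.1. Log2 ratios were recomputed from the deposited signal as OTX2low over OTX2high, the reverse of the authors' direction. A single read was worth 1.2536 in OTX2low and 0.7977 in OTX2high for H3K4me3, which made 100.0% of the values under 400 reads in each library whole within 0.05. For H3K27me3 the steps were 0.8746 and 1.1434 and the shares 100.0 and 100.0%. Exact conditional 95% intervals (Clopper-Pearson) were taken from these reads and cover counting error only. A G-test on the recovered reads, adjusted over the windows in the header, called 21714 of 21714 regions for H3K4me3 and 5401 of 5401 for H3K27me3, all of which the authors had called already. Overlap counting and intervals were tested on simulated data. The genes examined and the lists of cofactors, upstream regulators, neighbours and markers were chosen with earlier results of these data known. Every HOX gene was accounted for, and full values were given for those with an H3K4me3 peak or differential H3K4me3 region and for the strongest H3K27me3 peak of each cluster. Peaks within 1 kb of a 5′ end and the test on recovered reads were alternatives chosen after seeing the data. The IgG libraries, whose title and silencing label name opposite conditions, were assigned to no group. The hotspot tables and the columns of means were not used here. The values of 1 listed upstream regulator are not reported here.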

Additional observations from a re-analysis of the deposited data

How the results depend on the processing

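Of 109 values recomputed under other settings, 92 kept their direction and stayed within 1.5 times (counts and shares) or within the counting interval (medians), 16 moved and 1 reversed. Some of the 92 could not move. Lists of equal length leave the shorter list of each mark whole, and the G-test on recovered reads called every region again. Keeping only peaks with a −log10 q of at least 10, which left 2.91% of the list labelled OTX2low and 11.2% of the list labelled OTX2high for H3K27me3, lowered the HOX genes with H3K27me3 in the list labelled OTX2low to 14 and those with both marks to 5. In the list labelled OTX2low, H3K27me3 then covered 0% of HOXA, 26.9% of HOXB, 1.38% of HOXC and 2.95% of HOXD, and in the list labelled OTX2high 2.85% of HOXA. H3K4me3 then covered 7.52% of HOXA in OTX2low, and 1.03% of HOXB in OTX2low and 1.42% in OTX2high. A fold of at least 5 left 13 genes with both marks. For H3K4me3 differences, regions in peaks left 1 gene higher in OTX2low (HOXA13). An adjusted p of at most 0.0001 left 1 higher in OTX2low and 1 higher in OTX2high, HOXA13 and HOXC8. Recentred on the median of each table, the median log2 ratio at HOX genes was -0.08 for H3K4me3 and 0.75 for H3K27me3. With the conditions as the sample labels name them, the H3K27me3 median became -0.27.

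No extension, a 5 kb extension, lists of equal length, a peak mostly inside the window and, chosen after seeing the data, a peak within 1 kb of a 5′ end moved none of the counts and shares they were tried on by over 1.5 times. No paired analysis was possible because each mark has 1 library per condition. The same lack of replicates leaves the difference between any pair of libraries inseparable from that between the conditions. The OTX2low H3K4me3 library held fewer reads than the OTX2high one, and the part of depth in weak calls was not tested. The fragment length estimate differed between the H3K27me3 lists, and its part in their coverage was not tested.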

Other observations

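The clusters also hold microRNA genes, whose hairpins extended by 2 kb were looked up in the same lists. The miR-196 family, whose members are known to target HOX transcripts, has a gene in each of HOXA, HOXB and HOXC. Their mature sequences, from RefSeq (GRCh38.p14), share the seed, bases 2 to 8, in capitals. They are shown because genes of 1 seed stood in different states.
hsa-miR-196a-5p: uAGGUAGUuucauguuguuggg
hsa-miR-196b-5p: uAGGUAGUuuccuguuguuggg
MIR196B (chr7:27169480-27169563, minus strand), between HOXA9 and HOXA10, had no peak of either mark in any list. MIR196A1 (chr17:48632490-48632559, minus), in the gap between HOXB9 and HOXB13, had H3K27me3 over 91.7% of its window in the list labelled OTX2low and 100% in the list labelled OTX2high. MIR196A2 (chr12:53991738-53991847, plus), between HOXC9 and HOXC10, had H3K27me3 over 34.0 and 89.8%. None of the 3 had an H3K4me3 peak.

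The miR-10 genes lie beside HOXB4 and HOXD4. MIR10A had H3K27me3 over 78.6% of its window in the list labelled OTX2low and 97.3% in the list labelled OTX2high, and MIR10B over 52.9 and 90%, with no H3K4me3 at either. MIR615, inside HOXC5, was the only one of the 8 microRNA genes with H3K4me3 and no H3K27me3, at 20.8-fold in OTX2low and 22.9-fold in OTX2high. MIR7704, at the HOXD1 start, had both marks, with H3K4me3 of 12.5-fold in OTX2low and 14.8-fold in OTX2high. MIR3185 near HOXB13 had H3K27me3 alone, over 84.7 and 100% of its window.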
